A study of Mus musculus with 40 samples.

Results

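The comparison is a difference between 2 responses of the mouse colon to the protozoan Tritrichomonas musculis (T.mu) at day 48: the response of isolated colonic epithelial cells (T.mu over control) minus the response of total colonic tissue (T.mu over control). It was taken over all mouse gene rows of the count table, and 11834 of 45792 rows had enough counts to be tested. A positive log2 difference means a larger rise, or a smaller fall, in epithelium than in total tissue.

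Mice had received 2000000 sorted T.mu or no inoculum, and the 3′ ends of transcripts were sequenced and counted per gene. The 16 libraries of day 48, out of 40 in the series, formed 4 groups of 4: epithelium of T.mu mice, epithelium of uninoculated control mice, total tissue of T.mu mice and total tissue of uninoculated control mice, each with 1 library from each of litters 1 to 4. Strain, genotype, sex and age are not given in the sources used here. The series design speaks of 3 mice per group. The litter of each library was the same as the number in its title. The labels do not state whether the epithelium and the tissue of a litter came from the same mouse. P-values measure the spread between libraries of a group, estimated over all 40 libraries of the series.

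The epithelium of the colon is a single cell layer of absorptive, goblet, tuft and hormone-secreting cells that faces the lumen, while total tissue adds immune cells, connective tissue, vessels, muscle and attached fat. Interferons bind surface receptors and act through a cascade of kinases and transcription factors that switches on a large group of interferon-stimulated genes in epithelial and immune cells alike. IL-22 and IL-17 from lymphocytes act on the epithelium and induce antimicrobial genes there.

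Depth was not even. Total counts of mouse genes ranged from 1181322 to 2866306 in T.mu epithelium, from 1190410 to 1765601 in control epithelium, from 236155 to 1355659 in T.mu total tissue and from 2223447 to 6756616 in control total tissue. The 4 T.mu total tissue libraries carried another second sequencing index than the other 12, so low depth, index and T.mu in total tissue cannot be told apart. Among values of 1 to 20, 72.7% to 87.2% were even numbers in those 4 libraries and 61.2% to 67.9% in the other 12. Such shares were not particular to those 4. Control total tissue of day 14 had 80.85%, 85.8% and 77.5%, at 351445, 220717 and 1705280 counts. A read may thus have been counted as 2, which was tried by halving the counts. The non-mouse entry of the table was highest in those libraries, with 1425 to 13110 CPM (counts scaled to the total of the library) against 5.11 to 969 in control total tissue, and it had 45.2 to 417 CPM in T.mu epithelium against 21.8 to 43.4 in control epithelium. Mitochondrially encoded genes took 12.6% and 15.8% of the counts in litters 1 and 3 of T.mu epithelium, 31.3% and 41.6% in litters 2 and 4, and 29.4% to 36.6% in control epithelium.

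Muscle and fibroblast markers matched the labels, while epithelial and immune markers did not all do so. Acta2, an actin of smooth muscle, had 0 to 2.84 CPM in T.mu epithelium and 0 to 9.51 CPM in control epithelium, and Dcn, a fibroblast matrix gene, 0.584 to 2.96 and 2.85 to 6.56 CPM. In total tissue Acta2 had 589.9 to 1389 CPM with T.mu and 987 to 1314 CPM in controls, and Dcn 339 to 718 and 427 to 657 CPM. Epcam, an epithelial adhesion molecule, was lower in epithelium, with medians of 1073 CPM with T.mu and 975 CPM in controls, against 3541 and 2929 CPM in total tissue, and the leukocyte gene Ptprc was not lower there, with medians of 26.01 and 17.5 CPM against 10.3 and 13.5 CPM. Between the control preparations, epithelial genes differed in both directions. Insl5, a hormone of enteroendocrine cells, had 102 ± 19.6 CPM in control epithelium and 0.452 ± 0.524 CPM in control total tissue (SD, n = 4), whereas total tissue exceeded epithelium 9.49-fold for Krt20, a keratin of mature surface cells, and 3.18-fold for Car1. Each response is therefore read against its own controls.

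The responses of the 2 preparations differed for 4 genes, an interferon-induced pair and Rbp4 above 0 and Slc6a14 below. With edgeR's quasi-likelihood test, 4 genes passed an adjusted p (Benjamini-Hochberg over all genes tested) of 0.05, which is 0.0338% of the genes tested: Ifi27l2a, Ifitm3 and Rbp4 were higher (0.0254%) and Slc6a14 was lower (0.00845%). An unadjusted p under 0.05 was reached by 1102 genes (9.31%), of which 826 were higher (6.98%) and 276 lower (2.33%), and the median difference over all genes was 0.16 on the log2 scale. With RLE scaling, 6 genes passed, 2 higher and 4 lower, and the median was 0.07. With 1 library left out at a time, between 3 and 15 genes passed. The count was 15 without litter 3 of T.mu total tissue and 7 without litter 1 of T.mu or of control total tissue. In the same fit 24 genes changed in epithelium (0.203%), 23 higher (0.194%) and 1 lower, and 117 changed in total tissue (0.989%), 74 higher (0.625%) and 43 lower (0.363%). That balance was not stable: 51 were higher and 70 lower without the filter on low counts, and 75 and 77 without litter 3 of T.mu total tissue, while 56 passed in all without litter 3 of control total tissue. At an unadjusted p under 0.05 the epithelial response held 692 genes (5.85%), 431 higher (3.64%) and 261 lower (2.21%), and the total tissue response 1298 (11%), 441 higher (3.73%) and 857 lower (7.24%).

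Over all genes tested the rank correlation of the 2 responses was 0.002 (Spearman, across genes, with no p), while genes that rose in one preparation mostly had a positive fold change in the other. Of the 23 genes that rose in epithelium, 20 had a positive fold change in total tissue, where 40.5% of all genes did, and 14 rose there too. Of the 74 that rose in total tissue, 58 had a positive fold change in epithelium, where 52.9% of all genes did. Of the 43 that fell in total tissue, 21 had a negative fold change in epithelium, where 47.1% of all genes did, none fell there, and 38 had an unadjusted p under 0.05 for the difference, into which the total tissue response enters.

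**Figure D1:**
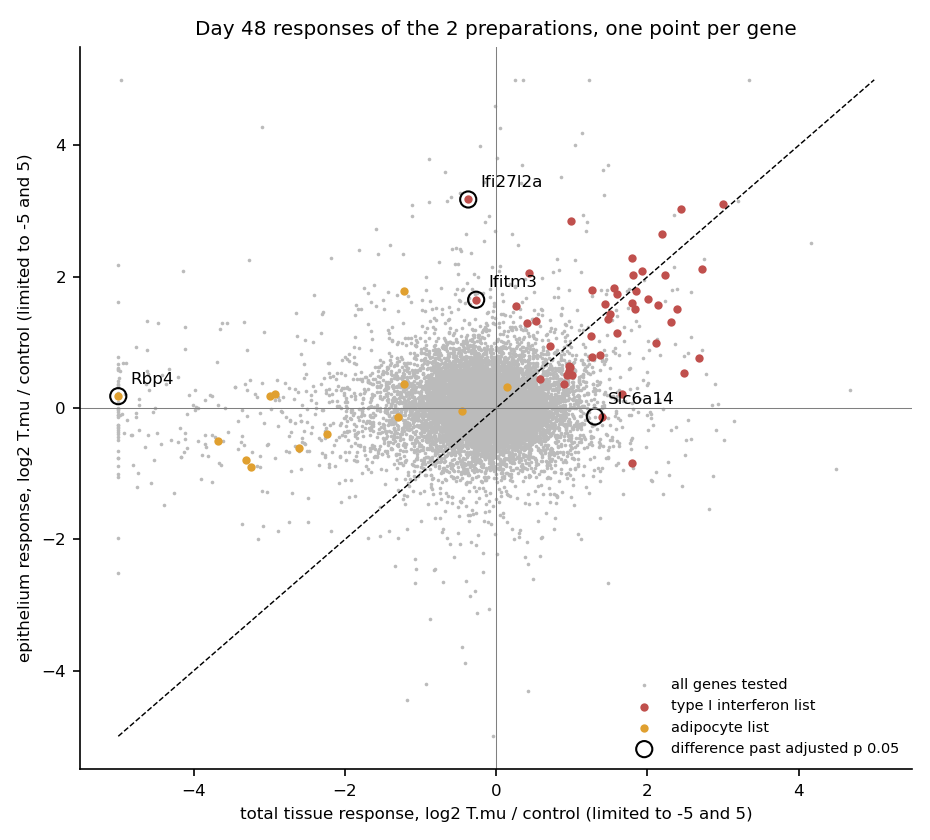
Fitted log2 fold change of T.mu over control at day 48 in epithelium (vertical axis) against total tissue (horizontal axis), one point per gene tested, with values beyond 5 drawn at 5. Type I interferon genes (red) lie up and to the right, adipocyte genes (orange) lie to the left near 0 in epithelium, and rings mark the 4 genes whose difference passed the test.

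Interferon-stimulated genes rose in both preparations, and 2 of them rose more in epithelium. Of 47 genes of the type I interferon list, 46 were tested. In epithelium 17 of them rose, with a median log2 fold change of 1.47, and in total tissue 28 rose, with a median of 1.53; over all genes the medians were 0.03 and -0.12. None fell in either. The median difference was -0.18 (0.04 without litter 3 of T.mu total tissue), and 18 of 46 members had a difference above 0, against 59.4% of all genes tested. By litter the list median was 0.48, 0.95, -0.91 and -0.26, so its sign differed between litters. By library, the list stood 1.29 to 1.45 above the epithelial control mean in T.mu epithelium and -0.11 to 0.38 in control epithelium (median log2 CPM relative to the control mean), with no overlap. In total tissue it stood at 0.75 to 1.79 with T.mu and at -0.23 to 0.15 in controls, again with no overlap.

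Ifi27l2a encodes a small interferon-induced membrane protein. It had 34.7, 43.5, 18.7 and 32.6 CPM in T.mu epithelium of litters 1 to 4, against 4.13, 0, 3.79 and 5.70 CPM in control epithelium. In total tissue it had 116, 140.5, 97.4 and 113 CPM with T.mu, against 113, 218, 136 and 135 CPM in controls. The epithelial groups did not overlap, while in total tissue the T.mu and control libraries shared their range. The log2 fold change was 3.18 ± 0.47 (SE) in epithelium and -0.37 ± 0.31 in total tissue, and the difference of 3.55 ± 0.57 had an adjusted p of 0.00179 (edgeR) and was above 0 in 4 of 4 litters. Total tissue exceeded epithelium 3.55-fold in T.mu mice and 42.8-fold in control mice, from the pooled CPM of each group.

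Ifitm3 encodes an interferon-induced membrane protein that restricts the entry of enveloped viruses. Its CPM values were 44.6, 99.4, 61.9 and 75.1 in T.mu epithelium, against 19.3, 16.9, 23.4 and 28.5 in control epithelium. Total tissue had 125, 68.7, 89.8 and 48.5 CPM with T.mu, against 81.3, 101, 127 and 91.8 CPM in controls. Every T.mu library of the epithelium was above every control library, and the total tissue groups overlapped. The difference was 1.92 ± 0.40 with an adjusted p of 0.0207 (edgeR), made of 1.65 ± 0.29 in epithelium and -0.27 ± 0.27 in total tissue. With litter as a block it was 1.91 with an adjusted p of 0.0533, and it passed in 16 of 27 alternative settings. It did not pass when litter 1 or 2 of control epithelium, litter 2 or 4 of T.mu epithelium, litter 3 of control total tissue or litter 2 or 4 of T.mu total tissue was left out.

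**Figure D2:**
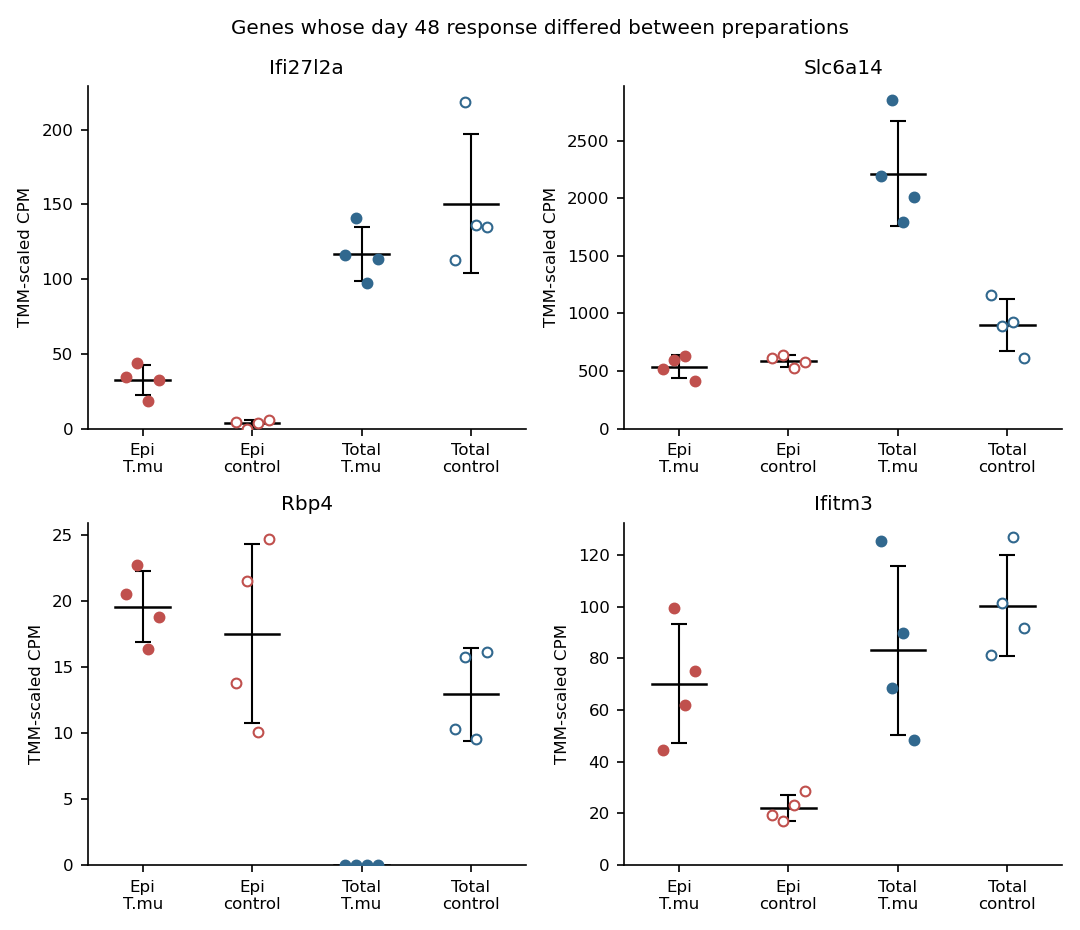
TMM-scaled CPM of the 4 genes whose day 48 response differed between preparations, one point per library (filled: T.mu; open: control), with the group mean and SD as bars. T.mu and control libraries of Ifi27l2a and Ifitm3 are apart in epithelium and overlap in total tissue, those of Slc6a14 overlap in epithelium and are apart in total tissue, and Rbp4 is at 0 in all 4 T.mu total tissue libraries.

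Irf7, the transcription factor that amplifies interferon production, came next among the higher genes and did not pass (1.29 ± 0.30, adjusted p 0.0759, edgeR). It rose to 128, 87.1, 204 and 131 CPM in T.mu epithelium, against 44.7, 50.6, 36.6 and 57.0 CPM in control epithelium, a log2 fold change of 1.56 ± 0.22. In total tissue it had 596, 628, 717 and 517 CPM with T.mu and 480, 530, 548 and 494 CPM in controls, a fold change of 0.27 ± 0.20 that did not pass. Its level was thus higher in every total tissue library than in any epithelial one. Outside the interferon list, Pitpnm1 was nearest to passing among the higher genes, with 2.86 ± 0.69 (adjusted p 0.105, edgeR). It rose by 2.39 ± 0.53 in epithelium, from 14 counts in the control group to 90 with T.mu. In total tissue it had -0.47 ± 0.44, which did not pass.

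Of the 34 list members that rose in at least one preparation, 11 rose in both, 6 in epithelium alone and 17 in total tissue alone, which by itself is no test of a difference. The 6 were Ifi27l2a, Ifitm3, Irf7, Oas3, Lgals9 and Lgals3bp. Oas3, a synthetase of the oligoadenylates that activate RNase L, had a difference of 1.87 ± 0.52 (adjusted p 0.158, edgeR), and Lgals9 and Lgals3bp, a galectin and a galectin-binding glycoprotein, had 0.89 ± 0.29 and 0.80 ± 0.28 (adjusted p 0.246 and 0.319, edgeR). In T.mu mice the level of these 6 was 1.36 to 4.76 times as high in total tissue as in epithelium (median 2.58), and in control mice 2.73 to 42.8 times (median 8.14). For the 11 that rose in both, the same ratios were 0.583 to 7.10 (median 1.77) with T.mu and 0.464 to 9.18 (median 1.60) in controls. These levels enter the difference itself, so the ratios describe it and do not test it.

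Among the 11, Ifit2, which binds viral RNA, had a fold change of 3.11 ± 0.65 in epithelium and 3.00 ± 0.40 in total tissue on the log2 scale, with a difference of 0.11 ± 0.55. Oasl2 had 2.66 ± 0.40 and 2.19 ± 0.36, and Rtp4, an interferon-induced chaperone, 2.03 ± 0.38 and 2.24 ± 0.35. Outside the 11, Isg15, a ubiquitin-like modifier, had 3.04 ± 0.75 in epithelium, where it did not pass at 11.3, 5.68, 9.34 and 13.8 CPM against 0, 3.75, 1.26 and 0 CPM, and it rose by 2.44 ± 0.43 in total tissue.

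At the other end stood members that rose in total tissue and not in epithelium. Ifit3, an adaptor of antiviral signalling, had a difference of -1.96 ± 1.08, Epsti1 of -1.53 ± 0.51 and Cmpk2, a mitochondrial nucleotide kinase, of -1.45 ± 0.57, none past the test. Outside the list, the Ifit1 relatives Ifit1bl1 and Ifit1bl2 showed the same order. Ifit1bl1 had 149.5, 248, 179 and 222 CPM in T.mu epithelium against 113, 85.3, 107 and 124 CPM in control epithelium, and 774, 790, 984 and 796 CPM in T.mu total tissue against 118, 191, 61.1 and 139.8 CPM in control total tissue. Neither pair of groups overlapped, with a rise of 2.72 ± 0.33 in total tissue and a change of 0.89 ± 0.32 in epithelium that did not pass. The difference of -1.83 ± 0.45 did not pass either (adjusted p 0.154, edgeR). Ifit1bl2 had -1.77 ± 0.43 (adjusted p 0.105, edgeR), with a rise of 1.91 ± 0.28 in total tissue alone.

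**Figure D3:**
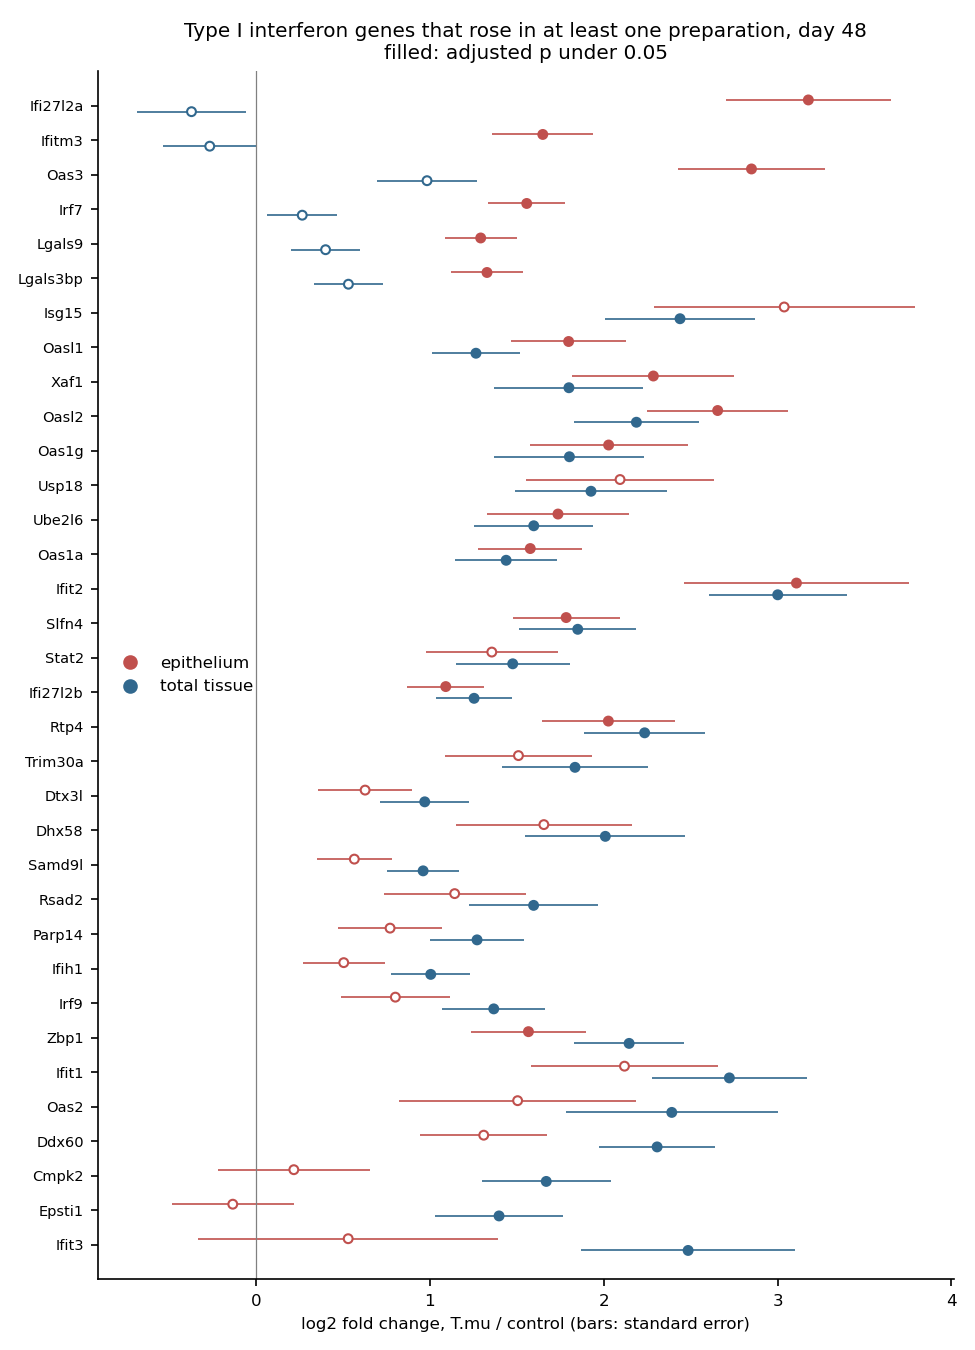
Log2 fold change of T.mu over control with its standard error for the 34 genes of the type I interferon list that rose in at least one preparation, in epithelium (red) and total tissue (blue), filled where the change passed the test and ordered by the difference between preparations. Most pairs of symbols lie close together to the right of 0, while Ifi27l2a and Ifitm3 at the top lie right of 0 in epithelium alone.

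Some of these genes also share letters in their promoters. The core of the interferon-stimulated response element, searched as GAAA, any 2 bases and GAAA again on either strand (overlaps counted), lies within the 250 bases before the start of 13 of the 34 tested list members that have an entry in RefSeq's table (GRCm38.p6), or 38.2%, against 3.46% of all 27025 genes in that table. The windows of Isg15, a standard interferon-stimulated gene, of Oas3 and Ifit1bl2, whose fitted differences lay above and below 0, and of Ifitm3, whose difference passed, are given so that they can be compared, with matches in capitals. Isg15 has 3 overlapping matches, Oas3 has 1, Ifit1bl2 has 2 in the window shown and none in its other window, and this window of Ifitm3 has none; a match is a description of the letters.
Isg15, chr4:156200819-156201068, minus strand: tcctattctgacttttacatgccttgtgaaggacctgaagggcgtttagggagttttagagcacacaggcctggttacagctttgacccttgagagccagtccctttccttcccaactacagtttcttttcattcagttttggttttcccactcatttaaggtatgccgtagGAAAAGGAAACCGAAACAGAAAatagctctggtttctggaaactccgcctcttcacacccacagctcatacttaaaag
Oas3, chr5:120777660-120777909, minus strand: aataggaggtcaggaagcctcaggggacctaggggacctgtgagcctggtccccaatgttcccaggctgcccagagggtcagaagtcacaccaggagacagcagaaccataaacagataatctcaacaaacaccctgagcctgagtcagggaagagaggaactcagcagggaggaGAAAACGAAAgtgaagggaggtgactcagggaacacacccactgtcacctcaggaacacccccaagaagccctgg
Ifit1bl2, chr19:34640744-34640993, minus strand: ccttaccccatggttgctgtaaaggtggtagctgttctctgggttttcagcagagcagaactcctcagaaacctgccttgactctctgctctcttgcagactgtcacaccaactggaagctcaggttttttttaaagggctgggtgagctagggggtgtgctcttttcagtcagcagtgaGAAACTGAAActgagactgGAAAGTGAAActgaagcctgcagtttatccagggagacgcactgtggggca
Ifitm3, chr7:141010745-141010994, minus strand: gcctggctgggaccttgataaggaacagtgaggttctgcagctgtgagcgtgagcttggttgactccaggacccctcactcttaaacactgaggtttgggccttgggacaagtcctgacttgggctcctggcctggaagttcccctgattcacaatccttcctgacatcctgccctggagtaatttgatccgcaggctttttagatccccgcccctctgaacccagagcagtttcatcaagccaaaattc

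Genes of the interferon-gamma response and of class I antigen presentation rose in part in both preparations. Of 30 tested, 3 rose in epithelium and 6 in total tissue, with median log2 fold changes of 0.75 and 0.89 and a median difference of 0.02, whose sign turned in 9 of 27 alternative settings, RLE scaling among them. No difference passed. Irgm1, an immunity-related GTPase, had 1.34 ± 0.28 in epithelium and 1.54 ± 0.27 in total tissue, and Ifi47, another of that family, 1.40 ± 0.31 and 1.60 ± 0.26. Tap1, the peptide transporter of class I loading, had 1.11 ± 0.34 in epithelium, which did not pass, and rose by 1.47 ± 0.33 in total tissue.

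None of the 7 tested genes of class II presentation passed in either preparation, while all 7 had a positive fold change in both. Against medians of 0.03 and -0.12 over all genes, theirs were 1.29 in epithelium and 0.91 in total tissue (log2). Cd74, the invariant chain, had the largest difference of them (2.96 ± 1.40, unadjusted p 0.0431, adjusted p 0.525, edgeR). It had 25.5, 68.1, 17.5 and 24.7 CPM in T.mu epithelium against 0, 7.50, 1.26 and 0 CPM in control epithelium, and 56.4, 501, 107 and 420 CPM in T.mu total tissue against 29.1, 44.2, 52.8 and 392 CPM in control total tissue. In total tissue litter 4 was high in both groups. Lymphocyte transcripts were few in epithelium. Gzma, a granule protease of cytotoxic cells, had 7.002 to 11.4 CPM there with T.mu against 0 to 2.81 CPM in controls and did not pass (adjusted p 0.554, edgeR). The ranges of the T cell gene Cd3e overlapped at 0.584 to 8.52 and 0 to 2.81 CPM, and the B cell gene Cd79a had 1 count in each epithelial group. T cell genes were not more abundant in total tissue. Their summed level had medians of 50.1 and 32.35 CPM in T.mu and control epithelium, against 32.6 CPM in both total tissue groups. The part of such cells in the values of Cd74 was not tested. The macrophage gene Lyz2 had 0 to 1.42 CPM in T.mu epithelium against 1.26 to 4.13 CPM in control epithelium. In these bulk samples more cells of a type and more RNA per cell cannot be told apart.

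Among lists with at least 10 tested members, antimicrobial and IL-17/IL-22 response genes had the lowest median difference, and their one passing member responded in total tissue. Of 19 tested, 16 had a difference below 0, with a median of -0.61. Differences above 0 made up 15.8% of the list, against 59.4% of all genes. By litter the list median was 0.213, -1.135, -0.179 and -0.536, so litter 1 went the other way. In total tissue 3 rose (Slc6a14, Duox2 and Pigr), where 0.625% of all genes did, while none rose in epithelium. By library the list stood at -0.19 to 0.38 in T.mu epithelium and -0.02 to 0.07 in control epithelium, and at 0.29 to 1.06 in T.mu total tissue and -0.07 to 0.22 in control total tissue.

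Slc6a14, an importer of neutral and basic amino acids on the apical face of colonocytes, had 515, 594, 634 and 409 CPM in T.mu epithelium against 612.5, 640.0, 524 and 579 CPM in control epithelium. It rose to 2191, 2854, 1795 and 2012 CPM in T.mu total tissue, against 1159, 887, 928 and 609 CPM in control total tissue. The epithelial groups overlapped and the total tissue groups did not. The difference was -1.43 ± 0.26 (adjusted p 0.00179, edgeR), below 0 in 4 of 4 litters, made of -0.13 ± 0.18 in epithelium and 1.31 ± 0.18 in total tissue. Total tissue exceeded epithelium 3.94-fold in T.mu mice and 1.51-fold in control mice.

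Duox2, the oxidase that makes hydrogen peroxide at the epithelial surface, rose by 1.86 in total tissue and had 0.31 in epithelium, a difference of -1.56 with an unadjusted p of 0.0104 (adjusted p 0.391, edgeR). Saa1, an acute-phase protein, had a difference of -1.72. The lectins Reg3g and Reg3b, which kill gram-positive bacteria or bind microbes, had -2.34 ± 1.63 and -2.10 ± 1.57. Reg3g varied with litter. T.mu total tissue had 103, 14580, 79.1 and 2958 CPM against 222, 2384, 82.1 and 1528 CPM in control total tissue, so litters 2 and 4 were high in both, while epithelium had 327, 87.1, 253 and 107 CPM with T.mu against 171, 187, 139 and 449.7 CPM in controls. Reg4 moved the other way, with 470, 918, 598 and 1025 CPM in T.mu epithelium against 429, 475, 293 and 288 CPM in control epithelium and a difference of 1.27 ± 0.43 that did not pass (adjusted p 0.315, edgeR).

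Among 26 tested inflammasome, IL-1 family and gasdermin genes no difference passed, and the median was -0.16. Casp4, the mouse caspase-11 that senses cytosolic lipopolysaccharide, came closest, with -1.57 ± 0.40 (adjusted p 0.113, edgeR). It had 28.0, 55.8, 42.0 and 49.4 CPM in T.mu epithelium against 37.9, 59.0, 48.0 and 43.7 CPM in control epithelium, and it rose to 94.0, 144, 73.0 and 113 CPM in T.mu total tissue against 41.1, 38.6, 32.3 and 43.3 CPM in control total tissue. Casp1, Pycard and Il18, the caspase, adaptor and cytokine of the canonical pathway, had -0.50 ± 0.30, 0.34 ± 0.26 and 0.31 ± 0.55. Gsdmc2, a pore-forming gasdermin of colonocytes, had 185, 413.5, 223 and 279.5 CPM in T.mu epithelium against 117, 144, 100.3 and 106.5 CPM in control epithelium, without overlap, and a difference of 1.38 ± 0.44 that did not pass (adjusted p 0.254, edgeR).

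Among the lower genes nearest to passing were Frk, a Src-related kinase, with -1.25 ± 0.29 (adjusted p 0.0759), Tm4sf20 with -1.22 ± 0.29 (adjusted p 0.0833) and Rnd3 with -1.30 ± 0.33 (adjusted p 0.113, all edgeR). Each rose in total tissue, by 0.79 ± 0.20, 0.81 ± 0.20 and 0.91 ± 0.22, and had a change in epithelium of -0.46, -0.41 and -0.38 that did not pass. Tm4sf20 had 301, 423, 346 and 415 CPM in T.mu epithelium against 462.5, 501, 471 and 535 CPM in control epithelium, and 448, 606, 436 and 574 CPM in T.mu total tissue against 314, 407, 262 and 193 CPM in control total tissue. T.mu and control did not overlap in either preparation and lay in opposite order. Col8a1, a short-chain collagen, was the 1 gene that fell in epithelium (-1.96 ± 0.44, to 10.3, 8.52, 11.7 and 3.95 CPM with T.mu against 31.7, 29.98, 40.4 and 38.0 CPM in controls), and its difference of -2.57 ± 0.67 did not pass (adjusted p 0.132, edgeR).

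Adipocyte genes fell in total tissue, and none passed the test in epithelium. All 13 tested members had a difference above 0, against 59.4% of all genes, with a median of 2.35. In total tissue 8 fell, with a median log2 fold change of -2.61 over the list, and the median in epithelium was -0.05. Adipoq, the hormone adiponectin, had 0 to 1.98 CPM in T.mu epithelium and 0 to 1.90 CPM in control epithelium, against 18.8, 24.98, 3.04 and 16.2 CPM in T.mu total tissue and 51.4, 237, 40.6 and 117 CPM in control total tissue. Fabp4, a fatty acid carrier, had 0 to 3.79 and 0 to 3.75 CPM in epithelium, against 43.9, 24.98, 12.2 and 48.5 CPM in T.mu total tissue and 90.3, 374, 110.3 and 267 CPM in control total tissue. Both were apart between T.mu and control total tissue, and at or near 0 in epithelium. Their epithelial fold changes had standard errors of 1.36 for Adipoq and 1.32 for Fabp4. A fall could hardly be seen there, so for such genes the difference restates the fall in total tissue. The summed level of the list was 538 to 808 CPM in T.mu total tissue against 1225 to 4527 CPM in control total tissue.

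Rbp4, the plasma carrier of retinol, is on that list but was also present in epithelium. It had 20.6, 22.7, 16.3 and 18.8 CPM in T.mu epithelium against 13.8, 21.6, 10.1 and 24.7 CPM in control epithelium, and it had no count in any T.mu total tissue library, against 10.3, 15.8, 9.53 and 16.2 CPM in control total tissue. Against a floor of 3 counts over the 4 libraries, which is 1.19 CPM, the level in T.mu total tissue was at least 10.4-fold lower than in control total tissue, or at least 5.22-fold if a read was counted as 2. The fitted difference of 7.68 ± 1.44 (adjusted p 0.00322, edgeR) depends on how the zero is handled and is no bound; at the floor it was 3.63 on the log2 scale, or 2.63 at a floor of 6 counts. DESeq2 gave no adjusted p for this gene.

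Lipid synthesis genes did not all move one way in total tissue. Of 33 tested genes of cholesterol and lipid synthesis no difference passed. Hmgcs1 and Msmo1 of the sterol pathway rose in total tissue, by 1.15 and 0.95, against 0.52 and 0.40 in epithelium, which did not pass. Scd1 and Fasn, a fatty acid desaturase and the fatty acid synthase, fell in total tissue, by 2.61 ± 0.41 and 1.39 ± 0.33, and their differences were 2.00 ± 0.58 and 1.91 ± 0.45 (adjusted p 0.221 and 0.113, edgeR). Scd1 is also on the adipocyte list, and in control total tissue Scd1 (143, 648, 259 and 720 CPM) and Fasn were higher in litters 2 and 4 than in 1 and 3, as Fabp4 was; the part of fat in their fall was not tested. Fasn had 199.8, 161, 152 and 104 CPM in T.mu epithelium against 118, 119.9, 132 and 61.8 CPM in control epithelium, and 31.4, 74.9, 70.0 and 97.0 CPM in T.mu total tissue against 85.6, 252, 142 and 234.5 CPM in control total tissue.

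Nuclear-encoded genes of respiration and translation had differences above 0 more often than not, as all genes did, with no member past the test. The median was 0.23 over 68 tested genes of nuclear-encoded respiration and 0.22 over 79 ribosomal protein genes, near the 0.16 of all genes. Of them 46 (67.65%) and 59 (74.7%) were above 0, against 59.4% of all genes. An unadjusted p under 0.05 with a higher value was reached by 13 and 9 of them, against 6.98% of all genes. Uqcr11, a small subunit of complex III, had 218, 271, 285 and 298 CPM in T.mu epithelium against 270.5, 267, 297 and 195 CPM in control epithelium, and fell to 75.2, 103, 67.7 and 72.7 CPM in T.mu total tissue against 179, 171, 159 and 149 CPM in control total tissue. Its difference was 1.09 ± 0.29 (adjusted p 0.132, edgeR). All 10 mitochondrially encoded genes had a difference below 0, with a median of -0.45; without litters 1 and 3 of T.mu epithelium, whose mitochondrial share was low, the median was 0.06.

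The difference also moved with base composition. Across genes, its rank correlation with the GC share of the longest transcript was 0.38, from 0.18 for the epithelial response and -0.35 for the total tissue response; genes are not independent replicates and no p is given. Rbp4 has 55.6% GC, Ifi27l2a 52.9%, Ifitm3 51.8% and Slc6a14 38.7%, against a median of 49.1% over the genes tested. With litter as a block and a correction for GC and length in each library, 6 genes passed and all 4 were among them, with differences of 7.53 for Rbp4, 3.38 for Ifi27l2a, 1.74 for Ifitm3 and -1.09 for Slc6a14.

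**Figure D4:**
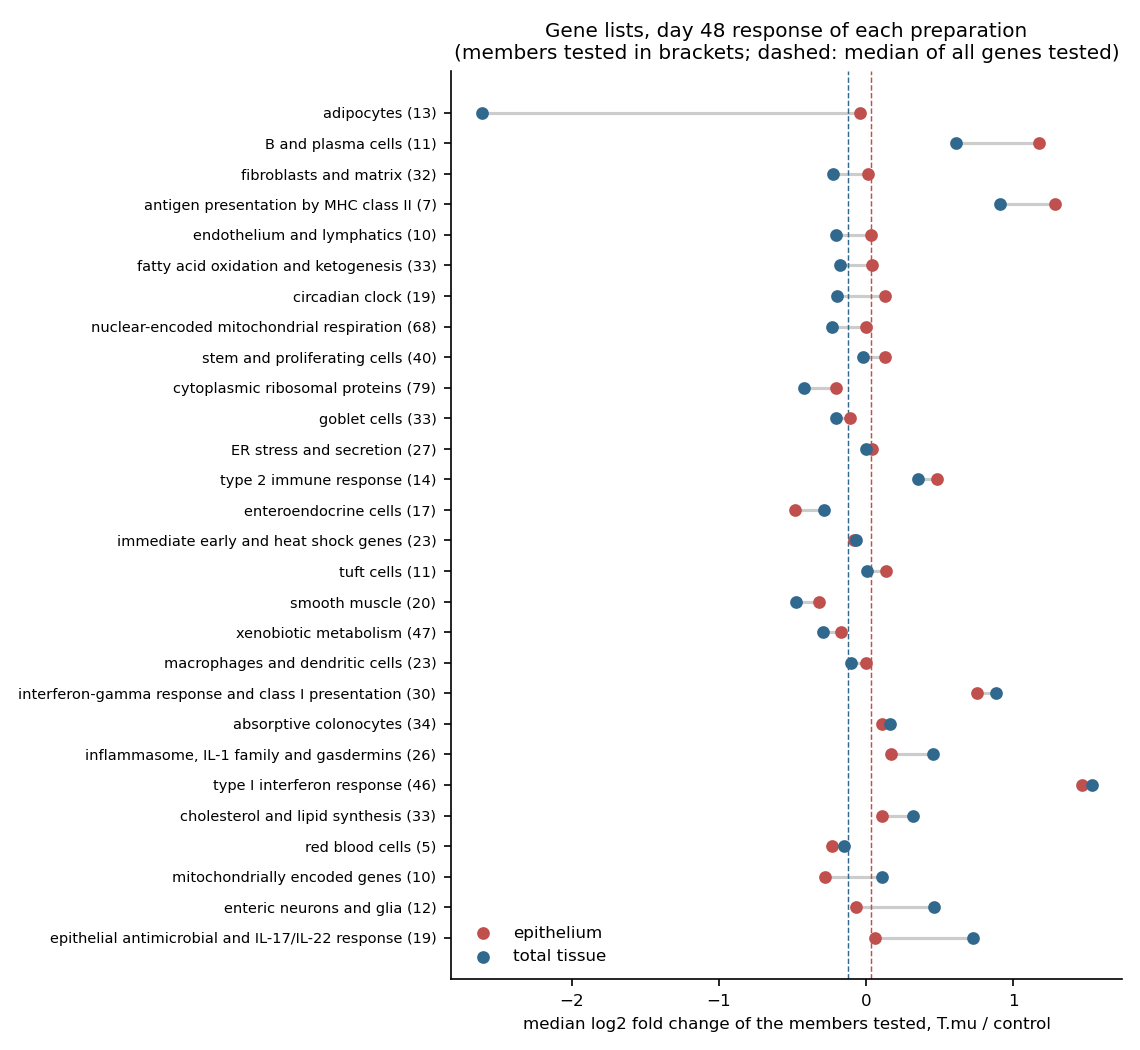
Median log2 fold change of T.mu over control at day 48 in epithelium (red) and total tissue (blue) for each gene list with at least 5 tested members, ordered by the median difference, with dashed lines at the medians of all genes tested. Adipocyte genes lie furthest apart, at -0.05 and -2.61, and type I interferon genes lie furthest right in both, at 1.47 and 1.53.

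In the lists of epithelial cell types no difference passed. Goblet cell genes had a median difference of 0.16 over 33 tested, equal to that of all genes; Muc2, the main secreted mucin, had 0.07 ± 0.34 and Tff3, a trefoil peptide, 0.05 ± 0.28. Retnlb, a goblet cell antimicrobial of type 2 immunity, had 1212, 5350, 2257 and 9059 CPM in T.mu epithelium against 1026, 752, 201 and 538 CPM in control epithelium, and 28.2, 59.3, 29.7 and 141 CPM in T.mu total tissue against 30.8, 24.8, 20.4 and 24.3 CPM in control total tissue. All epithelial T.mu libraries were above the controls, the total tissue groups overlapped, and the difference of 1.62 ± 1.01 did not pass (adjusted p 0.654, edgeR). Tuft cell genes had a median of 0.09 over 11, with 0.09 ± 0.50 for the marker Dclk1, and absorptive colonocyte genes -0.04 over 34, with -0.29 ± 0.24 for the carbonic anhydrase Car1.

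No B or plasma cell gene passed in either preparation, while 10 of 11 had a difference above 0, against 59.4% of all genes. The median difference was 0.80, or 0.65 with the 3 genes that had a group at 0 taken at their bounds. It came from median log2 fold changes of 1.18 in epithelium and 0.61 in total tissue. It stayed above 0 in 27 of 27 alternative settings, which refit the same counts. By litter, however, the list median was -0.23, 0.02, 0.62 and 0.13. The summed level of all listed genes had medians of 429 CPM in T.mu and 425 CPM in control epithelium, against 839 and 709 CPM in total tissue. Igha, the IgA heavy chain, had 25.9, 7.57, 14.6 and 20.7 CPM in T.mu epithelium against 8.26, 4.69, 8.84 and 3.80 CPM in control epithelium, and 213, 134, 139 and 72.7 CPM in T.mu total tissue against 63.4, 71.5, 121 and 111 CPM in control total tissue, with a difference of 0.81 ± 0.51. Jchain, which links IgA into dimers, had 0.28 ± 0.57. None of 20 smooth muscle genes had a positive fold change in total tissue, where 40.5% of all genes did. Their median there was -0.47, against -0.12 over all genes, and none passed. By library the list stood at -0.133, -0.784, -0.135 and -0.969 in T.mu total tissue and -0.296 to 0.252 in controls. The smooth muscle median difference of 0.09 turned its sign in 9 of 27 settings, RLE scaling among them. It rests on few counts in epithelium, such as 5 and 12 for Acta2. The median difference was 0.30 for fibroblast genes (0.11 with genes at 0 taken at their bounds), 0.27 for endothelial genes, with a sign that turned in 2 settings, and 0.22 over 40 proliferation genes, with 0.33 ± 0.48 for Mki67. By litter it was -0.028, -0.099, 0.161 and 2.415 for endothelial genes, and 0.839, 0.01, 0.327 and 1.427 for proliferation genes. Litter 4 was highest in both.

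**Figure D5:**
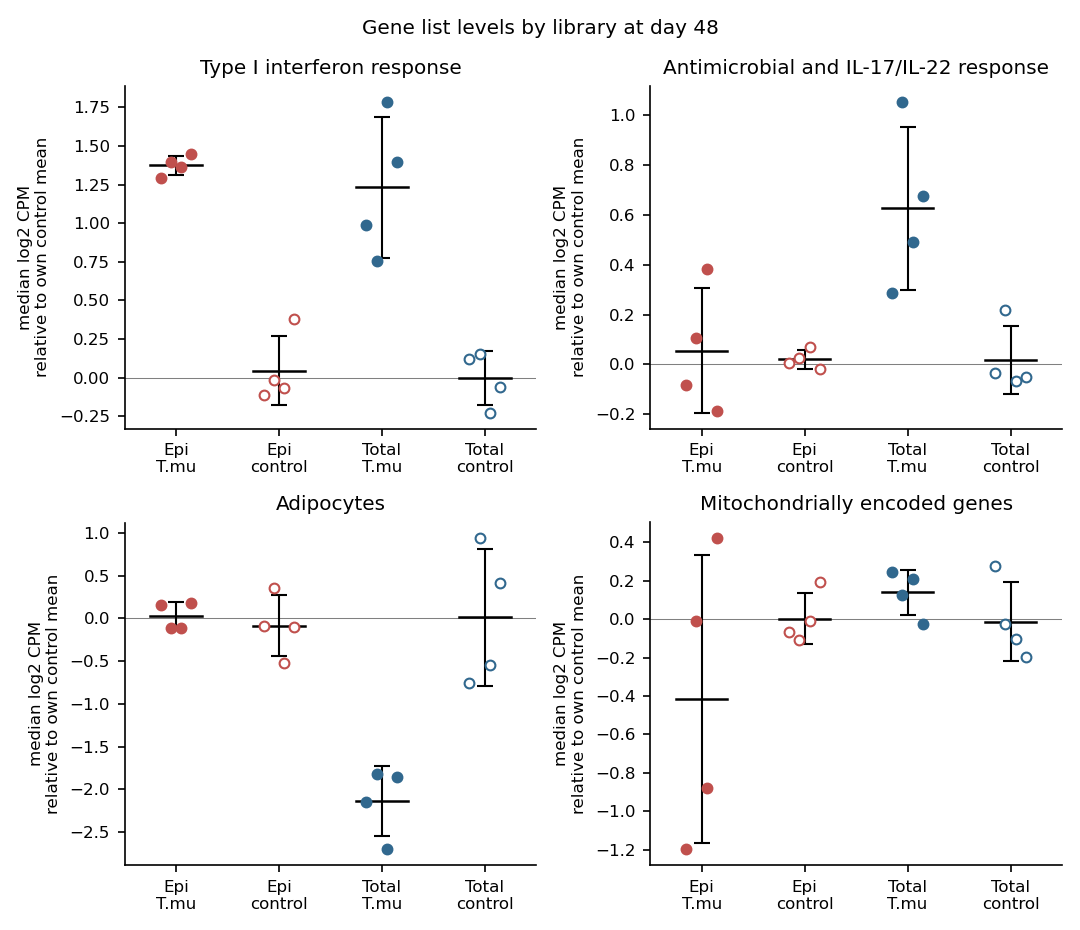
Median log2 CPM of the tested members of 4 gene lists in each day 48 library, relative to the control mean of the same preparation (filled: T.mu; open: control; bars: mean and SD). The interferon list is raised in both preparations, the antimicrobial list in total tissue, the adipocyte list is at -2.70 to -1.83 in T.mu total tissue alone, and mitochondrially encoded genes are low in litters 1 and 3 of T.mu epithelium.

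The differences are bounded by depth. The median standard error was 0.63 for the difference, 0.42 for the epithelial response and 0.46 for the total tissue response on the log2 scale, and 3 counts over a group amount to 0.454 CPM in T.mu epithelium, 0.582 in control epithelium, 1.19 in T.mu total tissue and 0.176 in control total tissue, counting error only. Myc, a growth-promoting transcription factor, had no count in T.mu total tissue against 5.99, 3.38, 4.36 and 7.82 CPM in control total tissue, at least 4.33-fold lower (2.17-fold if a read was counted as 2), and its difference did not pass (adjusted p 0.154, edgeR).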

How the data were processed

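Sequenced 3′-end RNA libraries of mouse colon were analysed from the deposited table, whose values are the authors' counts per gene, whole numbers as the file shows them. Small values are more often even than odd, so a count may not be 1 read. At day 48 this was most so in T.mu total tissue, and some shallow libraries of other days had similar shares. The 3′-end protocol is given per the labels. STAR and Subread are named in the submitters' processing notes; build, annotation and strand are not given in the sources used here. Of 45792 mouse gene rows, 98.6% carried a symbol; 1 non-mouse entry (0.389% of counts) was left out. All 40 libraries in 12 groups were fitted with edgeR 4.0.16 in R 4.3.3 (quasi-likelihood test, TMM, robust, filterByExpr with minimum count 10 and total 15), and Benjamini-Hochberg adjustment ran over 11834 genes with a threshold of 0.05. Levels are TMM-scaled CPM computed from the counts. Alternatives used limma 3.58.1 and DESeq2 1.42.0.

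Libraries of the same number were paired for the values given by litter, and that they shared a litter was taken as given. Deviations of the same litter correlated at 0.32 to 0.583 between T.mu and control total tissue and at -0.094 to 0.243 between T.mu and control epithelium. Between epithelium and total tissue of the same litter they correlated at -0.066 to 0.076 with T.mu and at -0.021 to 0.136 in controls.

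Genes were picked for naming if they passed, or were among the nearest 5 in a direction with fewer than 5. Up to 4 members of each list (or its member of smallest p) and a fixed list were added. So were the 10 of smallest p in each direction of either response. Not every gene so picked is printed, while some other list members and markers are. Members and lists were chosen with earlier results of these data known. The correction for GC content and the omission of litters 1 and 3 of T.mu epithelium were chosen after seeing the data. Floors cover counting error only.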

Additional observations from a re-analysis of the deposited data

Results flagged for a closer look

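The response differed between preparations, by edgeR's test of the difference, for Ifi27l2a (3.55 on the log2 scale), Ifitm3 (1.92), Rbp4 (7.68, fitted against a group with no count) and Slc6a14 (-1.43). Ifi27l2a and Slc6a14 passed in 27 of 27 alternative settings, Rbp4 in 26 and Ifitm3 in 16.

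In 6 of 112 sets of 4 libraries, 1 library's list value lay far from the other 3, where chance gives about 1 in 20. The gap to the nearest library took 0.885 of the whole range for macrophage genes, 0.871 for immediate early genes, 0.841 for ER stress genes and 0.832 for endothelial genes, all in T.mu total tissue. There litter 4, the shallowest library with 236155 counts, was lowest for macrophage, ER stress and endothelial genes. Litter 1 was highest for immediate early genes. The gap took 0.882 for antimicrobial genes in control total tissue, where litter 2 was highest, and 1 for B and plasma cell genes in control epithelium. None of the 16 sets of the 4 passing genes had such a library. The cause was not tested.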

How the results depend on the processing

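Ifi27l2a (3.16 to 3.81) and Slc6a14 (-1.58 to -1.09) kept their direction and passed in all 27 alternative settings, and no value of a passing gene turned its sign. Against 4 genes with a difference, 27 passed without a filter on low counts, 54 with DESeq2 (22 higher, 32 lower), 11 with counts halved (3 higher) and 11 without the libraries under 400000 counts (9 higher). Leaving out 1 library gave 3 to 15. Against 24 in epithelium, 43 passed without a filter, 41 with DESeq2 and 10 with limma voom, and leaving out 1 library gave 18 to 31. Without litters 1 and 3 of T.mu epithelium 28 passed, of which 15 were among the 24. Against 117 in total tissue, 233 passed with DESeq2, 176 with counts halved and 51 without the libraries under 400000 counts, and leaving out 1 library gave 56 (control total tissue litter 3) to 152. Rbp4 had 5.215 with DESeq2, with no adjusted p. Ifitm3 did not pass with RLE scaling (1.825), limma voom (1.839) or counts halved (1.823), and ranged from 1.70 to 2.08 with 1 library left out. The cause of these changes was not tested.

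The litter block fits an effect per litter number that all days and both preparations share. It therefore does not pair T.mu with control separately within each preparation. With this block 3 genes passed for the difference, 28 in epithelium and 139 in total tissue. Ifitm3 did not pass (1.911, adjusted p 0.0533, edgeR), and the other 3 passing genes kept their call. With library pairs as blocks, which compare the preparations within a litter number, 6 genes passed and all 4 were among them. Of the other genes picked for naming, 56 values passed in a setting where the main one had not. Another 40 moved by more than the spread between litters, and 19 list medians moved. The group of lowest depth, T.mu total tissue, has the highest floor, 1.19 CPM.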
